A study of Mus musculus with 21 samples.

Results

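The genes of calcium, sodium and potassium channel subunits were examined in forelimb buds (FBs) of mouse embryos kept in culture ex utero. Members were all genes whose symbol begins with Cacna1, Cacna2d, Cacnb or Cacng (calcium), has the form Scn with a number and a or b (sodium), or begins with Kcn (potassium), and whose value comes from an array feature of a single gene. They number 102 of the 14860 genes measured this way. The 19 calcium genes comprise 9 pore-forming alpha1, 3 alpha2delta, 3 beta and 4 gamma subunits, and the 10 sodium genes 7 pore-forming alpha and 3 beta subunits. The 73 potassium genes comprise 27 voltage-gated alpha subunits, 13 auxiliary and modifier genes, 9 of calcium- or sodium-activated channels, 14 inward rectifiers and 10 two-pore channels. The last 2 families are not gated by voltage in the classical way, so the potassium class is wider than its usual name.

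Swiss embryos at embryonic days E10.5 and E12.5 were explanted whole, and FBs were taken either at once (0 h) or after culture in rotating bottles with no further treatment. The times were 0, 1, 3 and 6 h at E10.5, and 0, 1 and 3 h at E12.5, with 3 biological replicates in each of the 7 groups, 1 Affymetrix Mouse Exon array each, 21 arrays in all. Each time point has its own embryos, and each array holds the RNA of whole buds, so fewer cells of a type and less RNA per cell cannot be told apart. Values are log2, and a difference of 1 is a doubling. A gene was called when its adjusted p from limma (Benjamini-Hochberg over all 14860 genes) was under 0.05. Exact permutation of 3 against 3 arrays cannot give a p under 0.1, so single genes were tested in the fit over all arrays. Error bounds are standard errors (SE) of that fit.

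Voltage-gated channels open when the membrane depolarizes. Calcium channels let calcium into the cell, where it triggers contraction, secretion and signalling, sodium channels carry the fast upstroke of the action potential, and potassium channels bring the membrane back to rest or set its resting voltage. The pore-forming subunit carries the ion path, while auxiliary subunits set how many channels reach the surface and how they gate. In a limb, the excitable tissues include skeletal muscle, whose precursors migrate in from the somites, and ingrowing nerves. Potassium and calcium currents are also known in limb cartilage and mesenchyme, and human mutations of KCNJ2 are known to cause limb and craniofacial anomalies.

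Most members had low values. Of the 102, 88 lay under the median level of all genes (7.43) and 52 lay above the lowest 30% of genes. Array medians ranged from 6.00 to 6.60. Of 10 measured limb mesenchyme markers, the mean was at least 8.86 in every array, so the labelled tissue carried its markers throughout. Some arrays stood apart. In E10.5 1 h replicate 1 the mean of 17 neuronal markers was 9.44 against 6.87 and 6.94 in its group, and 16 members (6 calcium, 2 sodium, 8 potassium) were over 0.5 above both other arrays, as were 5.81% of all genes. E10.5 3 h replicate 2 and E10.5 6 h replicate 3 had the lowest medians (6.00 and 6.02), with 26 and 13 members over 0.5 below both other arrays of their group, as were 13.7% and 9.45% of all genes. Counts without these 3 arrays, an alternative chosen after seeing the data, are given beside each comparison. The shares of all genes called in that fit are not given, so a larger count there is no result about the members.

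Calcium channel genes were higher at E12.5 than at E10.5, in freshly dissected FBs and again after culture. At 0 h, 12 of 19 calcium genes were higher and 0 lower, with a median difference of 0.69. Of 10 sodium genes, 2 were higher and 1 lower (median 0.06), and of 73 potassium genes 16 were higher and 4 lower (median 0.03). Over all members 30 were higher and 5 lower, where 19.7% of all genes were higher and 7.39% lower, with a median of 0.03. Among genes under the median level, 14.4% were higher, against 21 of the 88 members there. At 1 h, 27 members were higher and 1 lower, against 13.8% and 4.35% of all genes. The classes held 10 calcium genes higher, no sodium gene called in either direction (0 called, 5 at an unadjusted p under 0.05) and 17 potassium genes higher with 1 lower. At 3 h, 45 members were higher and 3 lower, against 17.7% and 11% of all genes. They were 12 calcium genes higher, 1 sodium gene higher and 2 lower, and 32 potassium genes higher and 1 lower, with medians of 0.78, -0.05 and 0.40. Without the 3 arrays that stand apart, the members higher and lower numbered 34 and 11 (0 h), 33 and 2 (1 h) and 40 and 5 (3 h). No share of all genes is given for that fit.

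The split by direction depends on how the arrays are scaled, since E12.5 arrays had higher medians. With all arrays shifted to a common median, the median of all genes moved to -0.22, -0.13 and -0.17 at 0, 1 and 3 h. Members higher and lower were then 25 and 25 (0 h), 23 and 8 (1 h) and 28 and 4 (3 h), and of all genes 1491 and 3628, 1211 and 1703, and 1520 and 3336. With quantile normalization the members higher and lower numbered 31 and 14, 25 and 7, and 31 and 5. All genes then numbered 2317 and 2406, 1705 and 1646, and 2179 and 2629. The calcium genes stayed mostly higher, with 10 higher and 1 lower at 0 h under the common median, 7 and 1 after 1 h, and 10 and 0 after 3 h, and with quantile normalization 13 and 0, 8 and 2, and 10 and 0. Of the potassium genes, 14 were higher and 22 lower at 0 h under the common median, where their median was -0.21 beside -0.22 for all genes, and 16 and 12 with quantile normalization. At 3 h they numbered 17 and 2, and 20 and 3.

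**Figure D1:**
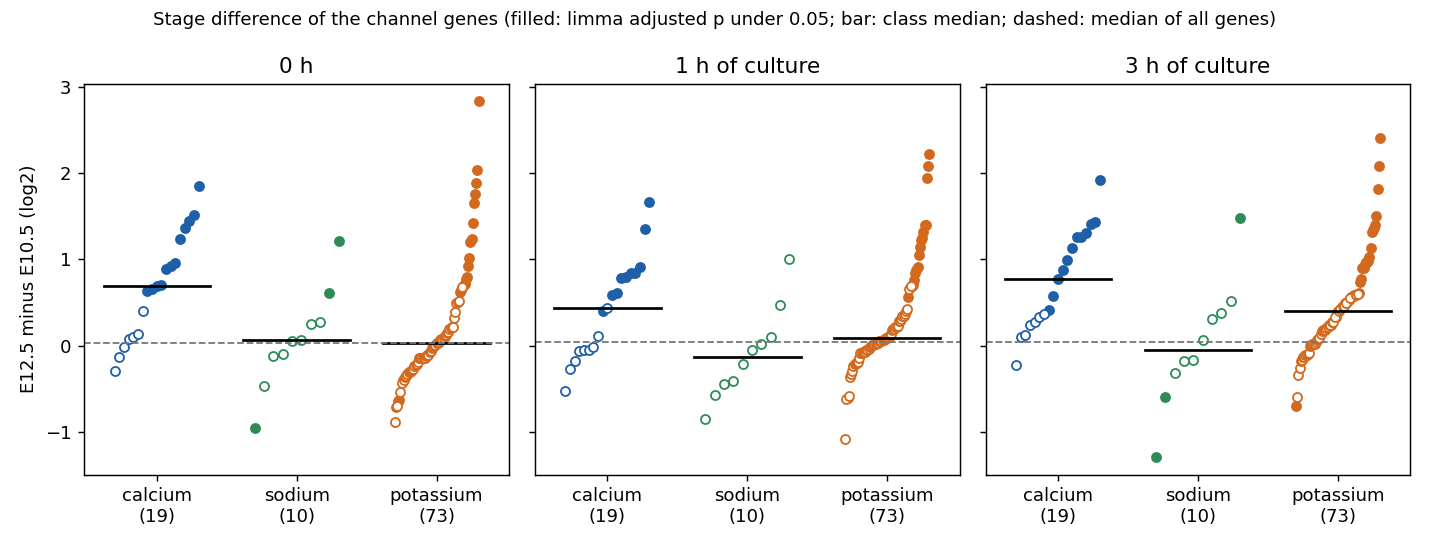
Log2 difference of E12.5 minus E10.5 for each of the 102 channel genes (vertical axis) by ion class, at 0, 1 and 3 h. Filled points are genes called by limma, bars are class medians and the dashed line is the median of all genes. The calcium bar lies at 0.69, 0.44 and 0.78, the sodium bar stays between -0.13 and 0.06, and the potassium bar goes from 0.03 and 0.09 to 0.40.

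Per array, the median deviation of the 19 calcium genes from their E10.5 0 h means was 0.73, 0.70 and 0.61 in E12.5 0 h replicates 1 to 3, 0.65, 0.67 and 0.79 after 1 h and 0.92, 0.76 and 0.87 after 3 h. Of the E10.5 arrays after 1 h, replicate 1 reached 0.73 and replicates 2 and 3 stood at 0.15 and 0.12. The array with the high calcium median at E10.5 is the one with the high neuronal markers, and the part of those markers in the result was not tested.

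**Figure D2:**
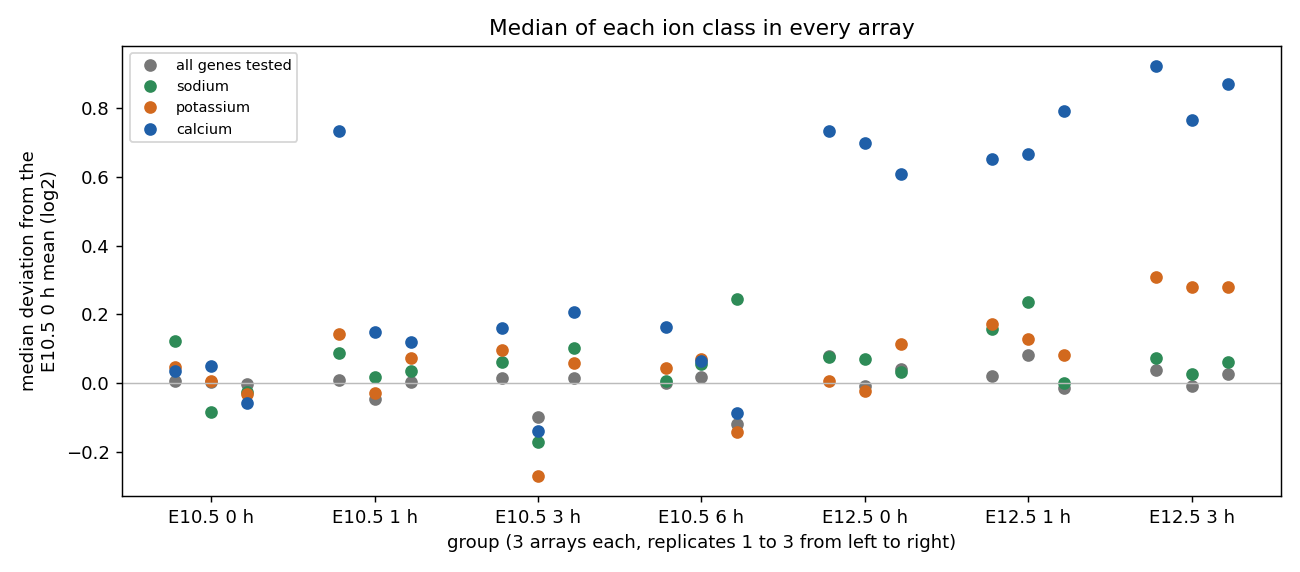
Median over the genes of each ion class of the deviation from the E10.5 0 h mean (log2, vertical axis), 1 point per array for the 7 groups of 3 arrays, with all 14860 genes in grey. All 9 E12.5 arrays have a calcium median of 0.61 or more, while E10.5 1 h replicate 1 is at 0.73.

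Among the pore-forming calcium genes, 6 of 9 were higher at E12.5 at each of 0, 1 and 3 h. Taken singly, these times had 19.7%, 13.8% and 17.7% of all genes higher. Cacna1s (gene 12292), the voltage sensor of skeletal muscle contraction, was at 4.91, 5.01 and 4.96 in E10.5 0 h replicates 1 to 3, and at 6.11, 6.36 and 6.96 in E12.5 0 h. It was at 5.83, 5.49 and 5.31 after 1 h of E10.5 culture and 7.30, 7.13 and 7.17 at E12.5, and at 5.58, 5.04 and 5.13 after 3 h against 7.25, 7.09 and 7.18. Every E12.5 array lay above every E10.5 array. The differences were 1.52 (SE 0.21, adjusted p = 3e-05), 1.66 (adjusted p = 1.92e-05) and 1.92 (adjusted p = 4.28e-06, 3.80-fold). At E12.5 it rose by 0.70 over 3 h (adjusted p = 0.0176), a call lost without 0 h replicates 1 or 2 (0.103 and 0.0663) or 3 h replicate 1 (0.0578). No single array ended the stage calls.

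The promoter of Cacna1s is shown because muscle genes carry E-boxes, the sites of MyoD and related factors. Sequences are the 250 bases before the RefSeq start site on assembly GRCm38.p6, 5′ to 3′ on the gene's strand, with the letters CAGCTG in capitals. This motif is its own reverse complement, so both strands were searched at once. It occurs in 3450 of 27025 promoters (12.8%) and in 21 of the 80 members with a listed promoter (26.2%), made up of 5 of 14 calcium, 2 of 8 sodium and 14 of 58 potassium genes (35.7%, 25.0% and 24.1%). A match describes the letters and is no evidence of binding. The Cacna1s window is chr1:136052561-136052810, plus strand, and its motif begins 123 bases before the start.
Cacna1s: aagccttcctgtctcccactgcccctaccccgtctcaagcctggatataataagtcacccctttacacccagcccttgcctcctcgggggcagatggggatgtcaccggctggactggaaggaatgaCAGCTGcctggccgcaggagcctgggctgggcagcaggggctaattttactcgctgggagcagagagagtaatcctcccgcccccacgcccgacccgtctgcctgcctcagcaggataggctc

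Cacna1h (gene 58226), a low-voltage-activated T-type channel, differed between stages and also rose in culture. It was at 6.72, 6.62 and 6.47 in E10.5 0 h, 7.66, 7.61 and 7.26 after 1 h, 7.65, 6.92 and 7.72 after 3 h, and 7.62, 7.0 and 7.13 after 6 h. All 9 cultured E10.5 arrays lay above the 3 fresh ones. The changes were 0.91 (SE 0.18, adjusted p = 0.00974), 0.83 (adjusted p = 0.0145) and 0.65 (adjusted p = 0.0408). At E12.5 it was at 8.0, 8.14 and 8.0 at 0 h, 8.13, 8.13 and 8.03 after 1 h and 8.83, 8.74 and 8.63 after 3 h, a rise of 0.69 by 3 h (adjusted p = 0.00969). E12.5 values lay above all E10.5 values, by 1.45 at 0 h (adjusted p = 1.44e-05), 0.59 at 1 h (adjusted p = 0.0329) and 1.30 at 3 h (adjusted p = 6.51e-05). The E10.5 calls rest on few arrays. The 1 h call was lost without 0 h replicate 3 (adjusted p = 0.0557) or 1 h replicate 1 (0.0565), the 3 h call without 0 h replicate 3 (0.0703), 3 h replicate 1 (0.0631) or 3 h replicate 3 (0.0624), and the 6 h call without any of the arrays but 6 h replicate 2 (0.0554 to 0.143). The stage call at 1 h was lost without any of its arrays but E10.5 1 h replicate 1 (0.053 to 0.15).

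Cacna1g (gene 12291), another T-type channel, was at 9.05, 8.87 and 8.88 in E10.5 0 h, 8.81, 8.70 and 9.21 after 3 h and 8.56, 7.77 and 8.23 after 6 h. The 6 h arrays lay under all 0 h and 3 h arrays. It fell by 0.75 from 0 h to 6 h (adjusted p = 0.0152) and by 0.72 from 3 h to 6 h (adjusted p = 0.0409). The first call was lost without 0 h replicate 1 (adjusted p = 0.0539) or 6 h replicate 2 (0.0724), and the second without 3 h replicates 1 or 3 or 6 h replicates 2 or 3 (0.0802 to 0.173). At E12.5 it moved the other way, with 9.62, 9.63 and 9.54 at 0 h, 9.71, 9.60 and 9.73 after 1 h and 10.33, 10.33 and 10.30 after 3 h, a rise of 0.73 (SE 0.18, adjusted p = 0.00549) with no overlap. The stage differences were 0.66 (adjusted p = 0.00956), 0.91 (adjusted p = 0.00142) and 1.41 (adjusted p = 2.17e-05).

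The L-type channels Cacna1c and Cacna1d, which carry calcium currents of heart, smooth muscle and neurons, changed with stage and were not called in any culture comparison. Cacna1c was at 7.34, 7.47 and 7.44 in E10.5 0 h and 8.44, 8.20 and 8.28 in E12.5 0 h, with differences of 0.89 (SE 0.16, adjusted p = 0.000518), 0.85 (adjusted p = 0.00117) and 1.13 (adjusted p = 7.59e-05) at 0, 1 and 3 h. Cacna1d was at 5.0, 5.26 and 5.06 against 6.03, 5.99 and 6.06, with differences of 0.92 (SE 0.11, adjusted p = 7.37e-06), 0.80 (adjusted p = 5.07e-05) and 0.88 (adjusted p = 1.96e-05). The stages did not overlap for either gene at any shared time. The mean of Cacna1d over all arrays, 5.55, lies in the lowest 30% of genes. Cacna1e, the R-type channel, was at 4.49, 4.60 and 4.46 against 5.05, 5.30 and 5.31 at 0 h, a difference of 0.70 (adjusted p = 0.000248), with 0.40 and 0.41 at 1 h and 3 h (adjusted p = 0.0242 and 0.0148). The 1 h call was lost without E10.5 1 h replicates 2 or 3 or E12.5 1 h replicates 1 or 3 (0.052 to 0.1) and the 3 h call without E10.5 3 h replicate 3 or E12.5 3 h replicates 1 or 2 (0.0575 to 0.0688). Cacna1b, the N-type channel of nerve endings, was called only at 3 h (0.58, adjusted p = 0.0196), and not without E10.5 3 h replicate 2 (0.105) or E12.5 3 h replicate 2 (0.0671). Cacna1a, the P/Q-type channel, and Cacna1f, the L-type channel of the retina, were not called in any comparison, and Cacna1f stayed between 4.17 and 4.46.

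**Figure D3:**
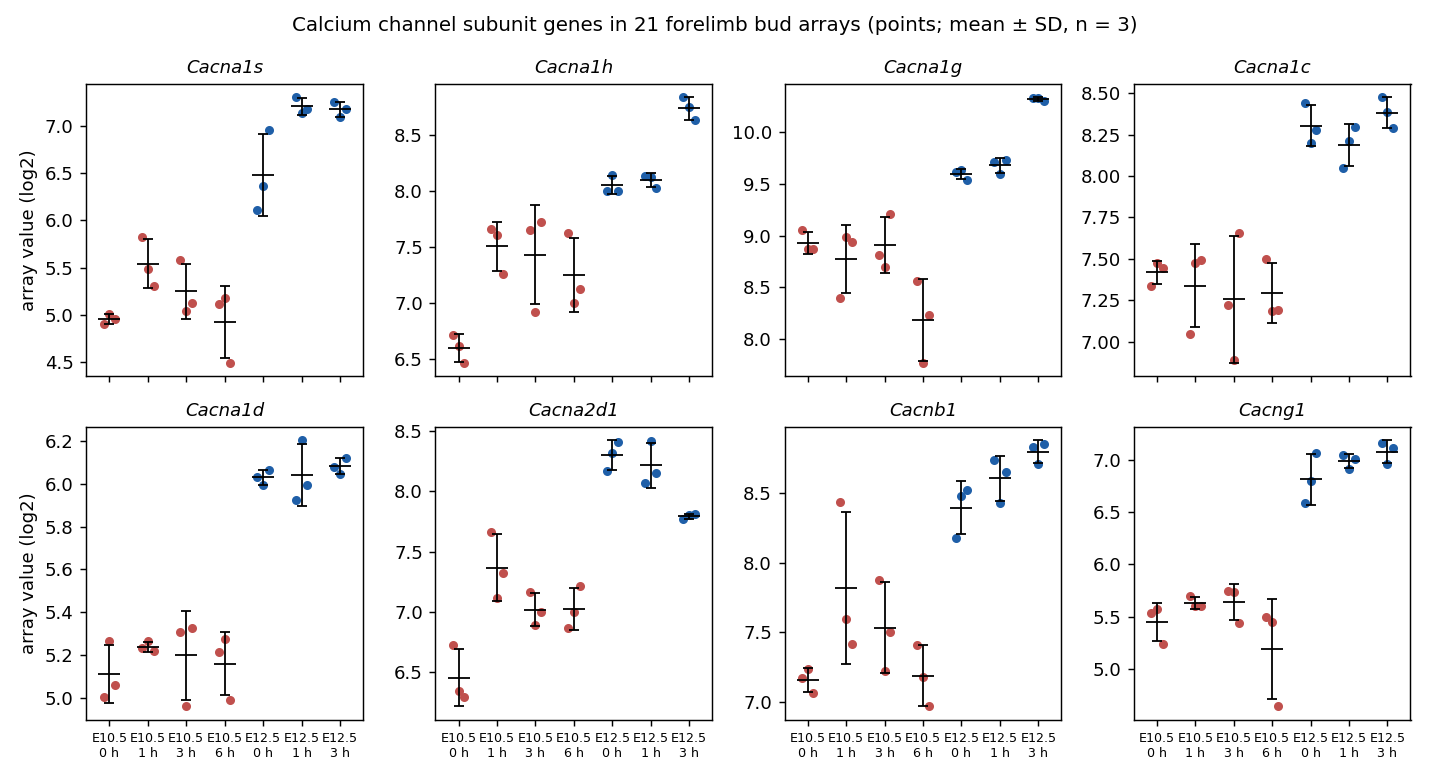
Array values (log2, vertical axis) of 8 calcium channel genes in the 7 groups, E10.5 in red and E12.5 in blue, with the mean and SD of 3 arrays. Cacna1s and Cacng1 lie higher in every E12.5 array than in any E10.5 array, and Cacna2d1 is lowest in the 3 fresh E10.5 arrays.

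Of the 10 auxiliary calcium subunit genes, 6 were higher at E12.5 at 0 h, 4 (1 h) and 5 (3 h), and none was lower. Cacna2d2, Cacnb4, Cacng2 and Cacng5, named after their values were seen, were called in none of the comparisons. Cacna2d1 (gene 12293), the alpha2delta subunit of muscle and other L-type channels, was at 6.72, 6.34 and 6.29 in E10.5 0 h, 7.67, 7.11 and 7.32 after 1 h, 7.16, 6.89 and 7.0 after 3 h and 6.86, 7.0 and 7.21 after 6 h. At E12.5 it was at 8.17, 8.32 and 8.41, then 8.07, 8.42 and 8.15 after 1 h and 7.77, 7.80 and 7.81 after 3 h. Cultured E10.5 arrays lay above fresh ones, and the 3 h E12.5 arrays lay below all other E12.5 arrays. It rose at E10.5 by 0.91 (SE 0.15, adjusted p = 0.00183), 0.57 (adjusted p = 0.0355) and 0.57 (adjusted p = 0.0245) at 1, 3 and 6 h and fell at E12.5 by 0.51 at 3 h (adjusted p = 0.0159). The 3 h rise was lost without 0 h replicates 2 or 3 or 3 h replicates 1 or 3 (adjusted p = 0.0714 to 0.147), the 6 h rise without 0 h replicates 2 or 3 or 6 h replicates 2 or 3 (0.0531 to 0.121), and the E12.5 fall without 0 h replicate 3 (0.064). The stage difference was 1.85 at 0 h (adjusted p = 9.06e-08, 3.60-fold), 0.85 at 1 h (adjusted p = 0.000527) and 0.78 at 3 h (adjusted p = 0.000862).

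Cacng1 and Cacnb1 encode the gamma and beta subunits of the skeletal muscle channel, the complex that holds Cacna1s. Cacng1 was at 5.54, 5.57 and 5.24 in E10.5 0 h and 6.58, 6.79 and 7.06 in E12.5 0 h, with differences of 1.36 (SE 0.19, adjusted p = 2.3e-05), 1.36 (adjusted p = 3.92e-05) and 1.44 (adjusted p = 2.23e-05). Cacnb1 was at 7.17, 7.23 and 7.07 against 8.18, 8.48 and 8.52, with 1.24 (adjusted p = 0.000298), 0.79 (adjusted p = 0.0142) and 1.26 (adjusted p = 0.000306). Cacng1 never overlapped between the stages, whereas Cacnb1 overlapped at 1 h, where E10.5 replicate 1 was at 8.44 against a lowest E12.5 value of 8.43, and that call was lost without E10.5 1 h replicates 2 or 3 or E12.5 1 h replicate 1 (0.0639 to 0.0881). Cacnb1 and Cacna2d3 were chosen for mention after their values were seen. Cacna2d3, an alpha2delta subunit, was higher by 0.69, 0.61 and 0.99 (adjusted p = 0.0151, 0.0424 and 0.00137), with overlap at 1 h, where E10.5 replicate 1 was at 6.02. Its 0 h call was lost without replicate 1 of either stage (0.0613 and 0.0576) and its 1 h call without any array but E10.5 replicate 1 (0.0621 to 0.214). Cacng4, a gamma subunit that also attends AMPA receptors, was higher by 0.95 at 0 h (adjusted p = 0.0144, lost without E10.5 0 h replicate 2 at 0.0548 or replicate 3 at 0.0503) and 1.26 at 3 h (adjusted p = 0.00237). Cacnb2, the beta subunit of cardiac channels, went from 8.12, 8.04 and 7.90 in E12.5 0 h to 7.38, 7.31 and 7.20 after 1 h and 7.53, 7.41 and 7.37 after 3 h, falls of 0.73 (SE 0.12, adjusted p = 0.00458) and 0.59 (adjusted p = 0.00212). Its fresh E12.5 arrays lay above E10.5 0 h (7.37, 7.41 and 7.39, adjusted p = 0.000995), and its cultured arrays were back near those values.

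Skeletal muscle markers differed between the stages in the same direction. Of 12 measured, 9 were higher at E12.5 at 0 h, 10 at 1 h and 11 at 3 h, and 0 lower. Their mean per array was 6.39 to 6.97 in E10.5 0 h and 8.67 to 9.54 in E12.5 0 h, and 9.60 to 9.75 and 9.67 to 9.92 after 1 h and 3 h of E12.5 culture. Myod1 and Myog, regulators of muscle differentiation, were higher by 2.92 and 3.28 at 0 h (adjusted p = 1.1e-06 and 8.18e-05). In E10.5 culture 5 muscle markers were higher at 1 h and 4 at 3 h. Of 6 measured markers of neural crest and Schwann cells, 5 were higher at E12.5 at 0 h (median difference 1.37), 2 (1 h) and 5 (3 h), and of 9 endothelial markers 2, 3 and 3, with none of either list lower. Of 6 smooth muscle markers 2, 1 and 2 were higher at 0, 1 and 3 h, and of 10 limb mesenchyme markers 3, 2 and 4, with 0 lower. Of 9 cartilage markers 6, 2 and 5 were higher, and 1 was lower each time. Other lists were mixed or went the other way. Of 17 neuronal markers 1 was higher and 2 lower at E12.5 at 0 h, 6 were lower at 1 h and 2 at 3 h. Of 8 mesothelium markers 2 were higher and 3 lower at 0 h, and 5 were lower at 1 h and at 3 h. Of 5 placenta and decidua markers 4 were lower at 0 h. The part of any of these markers in the calcium channel differences was not tested. Of 4 measured heart muscle markers, 0 differed between the fresh stages, also at an unadjusted p under 0.05, and 1 was lower at E12.5 at both 1 h and 3 h, with means between 5.02 and 5.80.

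Of 36 measured partners of these channels outside the rule, 16 were higher and 2 lower in fresh E12.5 FBs, 13 and 2 after 1 h, and 17 and 1 after 3 h. Those of muscle calcium release were among them at 0 h, with 0.88 for Ryr1, the release channel (adjusted p = 0.000585), 2.80 for Atp2a1, the calcium pump (adjusted p = 1.56e-06), 4.22 for Casq2, which stores calcium (adjusted p = 7.71e-07), and 1.28 for Stac3, which binds the Cacna1s complex (adjusted p = 4.39e-05). In culture, 4 partners were higher at E10.5 1 h, 2 at 3 h and 4 at 6 h, where 2 were lower. At E12.5, 5 were higher at 1 h, and 11 were higher and 2 lower at 3 h. In limma 0 were called in the stage difference of the 1 h change (7 at an unadjusted p under 0.05), and 1 was higher and 1 lower in that of the 3 h change.

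In all, 21 members were higher at E12.5 at 0, 1 and 3 h, of which 10 were calcium genes, 11 potassium genes and 0 sodium genes, and 0 members were lower at all times. The number of all genes higher at all 3 times was not computed, so the 21 cannot be set against it. The 3 comparisons use different arrays but share 1 estimate of the spread, and the E12.5 arrays had higher medians. The 10 calcium genes were Cacna1c, Cacna1d, Cacna1e, Cacna1g, Cacna1h, Cacna1s, Cacna2d1, Cacna2d3, Cacnb1 and Cacng1. Under the common median the set held 16, losing Cacna1e, Cacna1g, Cacna1h, Cacna2d3 and Kcnmb4. Without the 30% of genes with the lowest mean (cut at 5.60) it held 18, of which 7 were calcium genes. That filter removes Cacna1d, Cacna1e, Cacna2d3 and Kcnk13, whose means over all arrays were 5.55, 4.82, 5.40 and 5.02. Leaving out single arrays gave 17 to 23, the lowest without E10.5 1 h replicates 2 or 3 or E12.5 1 h replicate 1, when Cacna1e, Cacna1h, Cacna2d3 and Cacnb1 dropped out, and without the 3 arrays that stand apart it was 24, with all 21 kept. Another 42 members were called in no stage comparison, and 36 in none of the 11 comparisons (6 calcium, 5 sodium, 25 potassium). These numbers were not computed for all genes either, so they are no result about the members.

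The potassium genes higher at E12.5 at 0 h included auxiliary, voltage-gated, activated and inward rectifier genes. Kcnab1 (gene 16497), a beta subunit that binds Shaker-type channels inside the cell, was at 5.68, 5.37 and 4.84 in E10.5 0 h and 8.31, 8.09 and 7.98 in E12.5 0 h, a difference of 2.83 (SE 0.23, adjusted p = 1.36e-07, 7.11-fold). Kcnip4, which binds Kv4 channels, was at 5.12, 4.47 and 4.87 against 6.49, 7.02 and 7.08, a difference of 2.04 (adjusted p = 3.37e-06). Kcnd2, a Kv4 channel, was at 5.37, 5.97 and 6.08 against 7.59, 7.92 and 7.57, a difference of 1.89 (adjusted p = 1.12e-05). No E12.5 array of these genes overlapped an E10.5 array at 0 h. Kcnma1, the large-conductance calcium-activated channel, was at 5.66, 5.52 and 5.40 against 6.76, 7.07 and 7.70, with differences of 1.65 (adjusted p = 2.39e-05), 1.25 (adjusted p = 0.000571) and 1.5 (adjusted p = 9.18e-05) at 0, 1 and 3 h. Its neuronal-type beta subunit Kcnmb4 was higher by 1.42 at 0 h (adjusted p = 8.04e-06). Kcnj2, the inward rectifier that sets resting voltage in muscle, was at 5.76, 6.35 and 6.36 against 7.99, 7.86 and 7.89, a difference of 1.76 (adjusted p = 0.00102), the only 1 of 14 inward rectifiers called at 0 h. Fewer members were lower. Kcnh2, the hERG channel of cardiac repolarization, was at 7.66, 7.45 and 7.41 against 6.71, 6.89 and 7.01, a difference of -0.64 (adjusted p = 0.00535). Kcna7 (-0.40), Kcne2 (-0.62) and Kcnv2 (-0.71) were the other potassium genes lower at 0 h. Kcna7 lost its call without E12.5 0 h replicate 1 (adjusted p = 0.0532), and Kcne2 and Kcnv2 lost theirs without several single arrays (0.0515 to 0.17).

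At 3 h, of 27 voltage-gated alpha genes 11 were higher, and at 0 h 4 were higher and 3 lower, counts whose difference was not tested. The median deviation of the potassium genes from their E10.5 0 h means was 0.10, -0.27 and 0.06 in E10.5 3 h replicates 1 to 3. In E12.5 3 h it was 0.31, 0.28 and 0.28. Replicate 2 at E10.5 is a low-median array. Without the 3 arrays that stand apart, Kcna2, Kcnh3, Kcnip2, Kcnip3, Kcnj11, Kcnk4 and Kcnq3, named after their values were seen, lost their 3 h calls. Of 13 auxiliary genes 8 were higher, of 9 activated channels 5, of 14 inward rectifiers 5, and of 10 two-pore channels 3 higher and 1 lower. Kcne1l, a KCNE auxiliary subunit on the X chromosome, had the largest difference, 2.41 (SE 0.27, adjusted p = 8.62e-06, 5.32-fold). Kcne4 (2.08), Kcnip1 (1.81) and Kcnma1 (1.5) followed, and all E12.5 arrays of these 4 genes at 3 h were above all E10.5 arrays. The member that was lower, Kcnk5, a two-pore channel, differed by -0.69 (adjusted p = 0.0171) and was not called without E10.5 3 h replicate 1 or E12.5 3 h replicates 2 or 3 (adjusted p = 0.0549 to 0.0869). At 1 h Kcnj16, an inward rectifier, was the only member lower (-0.61, adjusted p = 0.0448), and it lost its call without any of 5 single arrays (0.0542 to 0.211). Kcnj14 was higher by 1.37 at 3 h (adjusted p = 0.0391) and lost its call without any of 5 single arrays (0.0553 to 0.152). Kcnj3, an inward rectifier opened by G proteins, was at 4.95, 4.37 and 4.74 in E10.5 3 h and 6.14, 5.38 and 6.73 in E12.5 3 h, a difference of 1.39 (SE 0.29, adjusted p = 0.00191) without overlap, and 1.23 at 1 h (adjusted p = 0.00671).

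The 11 potassium genes higher at E12.5 at all times were Kcna6, Kcnab2, Kcnd2, Kcne1l, Kcnip1, Kcnip4, Kcnk13, Kcnk2, Kcnma1, Kcnmb4 and Kcnn3. Kcnk13, a two-pore channel, was at 4.69, 4.09 and 4.26 in E10.5 0 h and 5.26, 5.60 and 5.78 in E12.5 0 h, with differences of 1.20 (SE 0.29, adjusted p = 0.00444), 1.40 (adjusted p = 0.00203) and 1.13 (adjusted p = 0.00683) at 0, 1 and 3 h. The stages did not overlap at any of these times. The mean of Kcnk13 over all arrays, 5.02, lies in the lowest 30% of genes. Kcnk2 was higher by 0.72, 1.32 and 1.31 (adjusted p = 0.0074, 6.4e-05 and 6.43e-05). Chosen after their values were seen, Kcna6, a Shaker-type channel, was higher by 0.79, 0.71 and 0.94 (adjusted p = 0.00317, 0.00986 and 0.000904), Kcnab2, a beta subunit of such channels, by 0.77, 0.76 and 0.90 (adjusted p = 0.00119, 0.00194 and 0.000361), and Kcnn3, a small-conductance calcium-activated channel, by 0.92, 0.92 and 0.97 (adjusted p = 0.00668, 0.00987 and 0.00484). No single array left out ended any of these calls of Kcnk13, Kcnk2, Kcna6, Kcnab2 or Kcnn3. Kcnj2 by contrast was called at 0 h alone.

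Sodium genes were few and mostly low. Of the 7 pore-forming genes, Scn1a, a channel of the nervous system, was at 3.50, 3.33 and 3.33 in E10.5 0 h and 3.89, 3.91 and 4.21 in E12.5 0 h, a difference of 0.62 (adjusted p = 0.00924, and 0.0515 without E12.5 0 h replicate 3). Scn9a, the channel of sensory and sympathetic neurons, was at 5.07, 5.51 and 5.11 in E10.5 3 h and 4.06, 3.66 and 4.12 in E12.5 3 h, a difference of -1.28 (adjusted p = 0.0138). Neither gene overlapped between these groups, and the Scn9a call was lost without E10.5 3 h replicate 2 (adjusted p = 0.0572) or E12.5 3 h replicate 2 (0.0581). Scn3a, Scn7a, Scn8a, Scn10a and Scn11a were not called in any of the 11 comparisons.

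The beta subunits of sodium channels, which also act in cell adhesion, moved more. Scn3b (gene 235281) was at 4.58, 4.4 and 4.46 in E10.5 0 h and 7.22, 5.39 and 5.48 after 1 h, then 5.61, 5.42 and 5.32 after 3 h and 5.45, 5.65 and 5.10 after 6 h. At E12.5 it was at 5.13, 5.69 and 6.25 at 0 h, 7.11, 7.09 and 6.92 after 1 h and 6.93, 6.88 and 6.97 after 3 h. The cultured arrays of each stage lay above its fresh ones, and the highest E10.5 value was that of the array with the high neuronal markers. It rose by 1.55 at E10.5 1 h (SE 0.35, adjusted p = 0.0182), or 0.96 without the 3 arrays that stand apart (adjusted p = 0.0259), and the call was lost without 0 h replicate 2 (0.0754) or 0 h replicate 3 (0.0695). At E12.5 3 h it rose by 1.24 (adjusted p = 0.013, and 0.0766 without 0 h replicate 1). It was higher at E12.5 by 1.21 at 0 h (adjusted p = 0.015, and 0.0844 without E12.5 0 h replicate 3) and 1.47 at 3 h (adjusted p = 0.00438). Scn4b was at 6.09, 5.72 and 5.64 in E10.5 0 h, 4.85, 4.71 and 5.35 after 6 h and 4.85, 4.76 and 4.98 in E12.5 0 h. Its differences from E10.5 0 h were -0.85 at 6 h (adjusted p = 0.0219, lost without 0 h replicate 1 at 0.0882 and without 6 h replicate 2 at 0.0865) and -0.96 at E12.5 (adjusted p = 0.00279). Scn2b was lower at E12.5 at 3 h by 0.59 on the log2 scale (difference -0.59, adjusted p = 0.0152), a call lost without E10.5 3 h replicate 3 (0.0719) or E12.5 3 h replicate 1 (0.0807).

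Few members changed in E10.5 culture. At 1 h 6 rose and 0 fell, against 2.79% and 1.12% of all genes, at 3 h 5 rose and 1 fell, against 3.23% and 1.45%, and at 6 h 4 rose and 3 fell, against 3.89% and 2.87%. Without the 3 arrays that stand apart the numbers were 10 and 1, 13 and 0, and 9 and 4, with no share of all genes given. They also moved with single arrays. For 1 h, dropping 0 h replicate 1 gave 10 in all and dropping 0 h replicate 3 gave 3. For 3 h, dropping 0 h replicate 2 gave 2, and 0 h replicate 3 or 3 h replicate 1 gave 1. For 6 h, dropping 0 h replicate 2 gave 4 and dropping 6 h replicate 2 gave 3. Of the 4 members that rose at 6 h, Cacna1h, Cacna2d1 and Kcnab1 had also been called higher at 1 h and 3 h. The 3 comparisons share the 0 h arrays.

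Kcnab1 had the largest change of any member in E10.5 culture. From 5.68, 5.37 and 4.84 at 0 h it went to 7.26, 7.10 and 6.80 after 1 h, 7.64, 6.68 and 7.41 after 3 h and 8.15, 7.64 and 7.74 after 6 h. All cultured arrays lay above the fresh ones, and the 6 h arrays reached values measured in E12.5 FBs. The rises were 1.75 (SE 0.23, adjusted p = 0.000326, 3.37-fold), 1.95 (adjusted p = 8.57e-05, 3.85-fold) and 2.55 (adjusted p = 1.95e-06, 5.85-fold), and no single array left out ended any of these calls. At E12.5 it went down instead, from 8.31, 8.09 and 7.98 at 0 h to 7.89, 7.61 and 7.63 after 1 h and 7.37, 7.28 and 7.62 after 3 h, a fall of 0.70 by 3 h (adjusted p = 0.0315). This fall was lost without E12.5 0 h replicates 1 or 2 (adjusted p = 0.114 and 0.0672) or 3 h replicates 1 or 2 (0.0834 and 0.107). The stage difference of Kcnab1, 2.83 in fresh FBs, was 0.66 after 1 h (adjusted p = 0.0579) and 0.18 after 3 h (adjusted p = 0.603).

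Kcnh7 (gene 170738), a channel of the ether-a-go-go family, was at 4.56, 4.03 and 4.03 at 0 h, 5.25, 5.01 and 4.74 after 1 h, 5.67, 4.49 and 5.40 after 3 h and 6.46, 6.43 and 5.75 after 6 h of E10.5 culture. The 6 h arrays were above all earlier arrays, while 1 array at 3 h overlapped the fresh ones. It rose by 0.98 at 3 h (adjusted p = 0.0353), 2.01 at 6 h (SE 0.25, adjusted p = 5.99e-05, 4.02-fold), and 1.03 from 3 h to 6 h (adjusted p = 0.0424). The 6 h call held without each array, the 3 h call was lost without 0 h replicates 2 or 3 or 3 h replicates 1 or 3 (adjusted p = 0.0985 to 0.131), and the last was lost without 3 h replicates 2 or 3 or 6 h replicates 1 or 2 (0.0554 to 0.15). In E12.5 FBs Kcnh7 lay between 4.23 and 5.0 and was not called. Kcnip4 rose at 3 h from its 0 h values to 5.77, 5.92 and 5.66 (0.96, adjusted p = 0.0218), without overlap, a call lost without 0 h replicates 2 or 3 or 3 h replicates 1 or 2 (0.0551 to 0.104). Kcnh1 and Kcnh5, of the same family as Kcnh7, rose at 1 h, by 0.61 (adjusted p = 0.0458) and 0.58 (adjusted p = 0.00489), and the Kcnh1 call was lost without the 3 arrays that stand apart (0.0867) and without any array but 1 h replicate 3 (0.055 to 0.23). The members that fell were Kcnv2 at 3 h (-0.79, adjusted p = 0.0474, with overlap) and Kcnmb1, the smooth muscle beta subunit of the large-conductance channel, at 6 h (-1.04, adjusted p = 0.0265), besides Cacna1g and Scn4b. Kcnv2 was not called without any array but 0 h replicate 1 (0.0657 to 0.201), and Kcnmb1 not without 0 h replicates 1 or 2 or 6 h replicates 2 or 3 (0.0523 to 0.125). Between 3 h and 6 h, 1 member rose and 2 fell, against 0.659% and 1.62% of all genes. They were Kcnh7, Cacna1g and Kcnmb1. Dropping 6 h replicate 2 left 0 calls, and dropping 3 h replicates 1 or 3 or 6 h replicate 3 left 1. The Kcnmb1 fall of 1.18 in this comparison (adjusted p = 0.0286) was lost without 3 h replicates 1 or 3 or 6 h replicates 2 or 3 (0.0699 to 0.14).

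Markers of other tissues moved in E10.5 culture beside these genes. Of 8 mesothelium markers 6 rose at each time, with means of 6.51 to 6.77 at 0 h and 8.16 to 9.33 after culture, and Aldh1a2, which makes retinoic acid, went from 7.39, 6.65 and 5.78 at 0 h to 10.93, 10.53 and 10.61 after 1 h. Of 17 neuronal markers 5 rose at 1 h, of 6 neural crest and Schwann cell markers 5 rose at 1 h and 3 by 3 h, of 6 smooth muscle markers 2 rose at 1 h and 3 by 3 h, and of 9 endothelial markers 4 rose by 3 h and by 6 h. Of 10 limb mesenchyme markers 4 fell at 1 h and 5 at 6 h. Of 5 placenta and decidua markers 3 fell at 1 h and 2 at 3 h, with 0 h means of 4.99, 7.30 and 7.07. Of 5 erythroid markers 0 were called in any comparison (at most 2 at an unadjusted p under 0.05), with means from 6.89 to 9.72, and of 9 cartilage markers 1 rose at 6 h and 6 were higher at E12.5 than E10.5 at 0 h with 1 lower. The part of these markers in the changes of Kcnab1, Kcnh7 or the calcium genes was not tested.

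In E12.5 culture, 8 of the 9 members called at 1 h and 18 of the 25 called at 3 h were potassium genes, which are 73 of the 102 members. At 1 h 8 members rose and 1 fell, against 1.29% and 0.828% of all genes. At 3 h 20 rose and 5 fell, against 9.94% and 17.6% of all genes. Of those that rose at 3 h, 15 were potassium genes (3 fell), 4 calcium genes (2 fell) and 1 a sodium gene. The median change at 3 h was 0.26 for potassium, 0.19 for calcium and 0.02 for sodium genes, and 0.01 for all genes. Among genes under the median level 5.68% rose, against 15 of the 88 members there. With a common median 30 members rose and 3 fell, and 1892 of all genes rose and 1928 fell. The total at 1 h was 5 without 0 h replicate 2, and at 3 h 16 without the same array. Without the 3 E10.5 arrays that stand apart, which enter only through the shared spread, 12 rose and 2 fell at 1 h. At 3 h 35 rose and 6 fell in that fit, for which no share of all genes is given.

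Kcne4 (gene 57814), a KCNE auxiliary subunit that inhibits several voltage-gated channels, was at 4.92, 4.83 and 4.75 in E12.5 0 h, 6.81, 6.96 and 6.63 after 1 h and 7.01, 6.08 and 6.82 after 3 h. All 6 cultured arrays lay above the fresh ones. The rises were 1.97 (SE 0.28, adjusted p = 0.00105, 3.91-fold) and 1.80 (adjusted p = 0.000222, 3.49-fold). In E10.5 FBs it ranged from 3.75 to 5.15 with no call. Kcnip1 (gene 70357), a calcium-binding partner of Kv4 channels, was at 5.67, 5.76 and 5.64, then 7.68, 7.59 and 7.60 after 1 h and 7.05, 6.76 and 7.33 after 3 h, rises of 1.93 (SE 0.24, adjusted p = 0.000276, 3.81-fold) and 1.36 (adjusted p = 0.000609) with no overlap.

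Kcnj8 (gene 16523), the pore of ATP-sensitive potassium channels in vascular smooth muscle and pericytes, was at 5.94, 5.78 and 6.17 at 0 h, 7.33, 7.22 and 7.20 after 1 h and 7.95, 7.55 and 7.33 after 3 h of E12.5 culture. All cultured arrays were above the fresh arrays, by 1.29 (SE 0.15, adjusted p = 0.000199) and 1.65 (adjusted p = 6.22e-06, 3.13-fold). The calls of Kcne4, Kcnip1 and Kcnj8 at both times held without each single array. Kcne1l (gene 66240) was at 8.29, 8.53 and 9.04, then 9.73, 9.66 and 9.86, then 9.84, 9.67 and 9.89. It did not overlap either and rose by 1.13 (SE 0.27, adjusted p = 0.0399) and 1.18 (adjusted p = 0.00399), but its 1 h call held only without 0 h replicate 3 and was lost without any other array (adjusted p = 0.0768 to 0.213).

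Kcna4, a Shaker-type channel that inactivates rapidly, was at 3.94, 3.99 and 4.4, then 4.96, 5.06 and 4.79 after 1 h and 5.02, 4.77 and 5.33 after 3 h. The cultured arrays did not overlap the fresh ones, and the rises were 0.83 (adjusted p = 0.00909) and 0.93 (adjusted p = 0.000403). Kcnk2, a two-pore channel that responds to stretch, was at 6.66, 6.48 and 6.66, then 7.74, 7.77 and 7.21, then 7.5, 7.18 and 7.36, rises of 0.98 (adjusted p = 0.00909) and 0.75 (adjusted p = 0.00591). Its groups did not overlap either. The 1 h call of Kcna4 was lost without 0 h replicates 1 or 2 (0.0674 and 0.061), and that of Kcnk2 without 0 h replicate 2 (0.0604) or 1 h replicate 1 (0.0629). Kcnn2, a small-conductance calcium-activated channel, rose by 0.80 (adjusted p = 0.00166) and 0.57 (adjusted p = 0.00196). These 7 genes were the members called higher at both times. Kcnq3 rose at 1 h alone (0.47, adjusted p = 0.036), and not without any array but 0 h replicate 1 (0.0738 to 0.159).

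**Figure D4:**
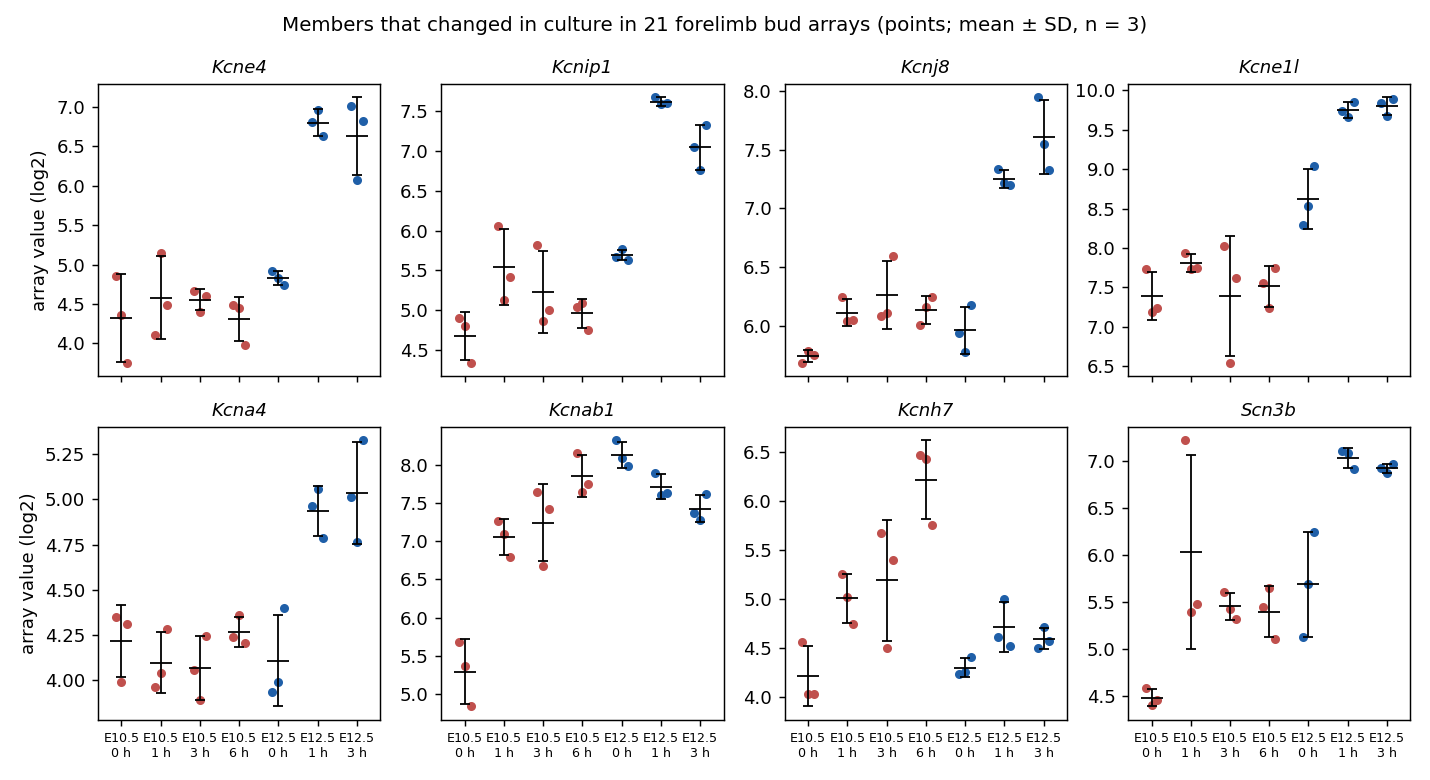
Array values (log2, vertical axis) of 8 members that changed in culture, in the 7 groups, E10.5 in red and E12.5 in blue, with the mean and SD of 3 arrays. Kcne4, Kcnip1 and Kcnj8 step up after 1 h at E12.5, and Kcnab1 and Kcnh7 climb in E10.5 culture.

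At 3 h Kcnh2 rose from its 0 h values to 7.79, 7.58 and 7.78 (0.84, adjusted p = 0.000769), above all fresh arrays. Other voltage-gated genes that rose were Kcna1 (0.65), Kcnd3 (0.57), Kcns3 (0.56), Kcnc1 (0.38) and Kcnq1 (0.34), chosen for mention after their values were seen as they lie outside the 10 with the largest rise. The calls of Kcna1, Kcnc1 and Kcnq1 were lost without 0 h replicate 2 (adjusted p = 0.0568, 0.0896 and 0.146) and without 3 h replicate 1 (0.0592, 0.0747 and 0.0919), those of Kcnc1 and Kcnq1 also without most other arrays (0.0569 to 0.178), while those of Kcnd3 and Kcns3 held without each array. Those that fell were Kcnab1 (-0.70), Kcnmb4 (-0.69), Cacnb2 (-0.59), Kcnrg (-0.55) and Cacna2d1 (-0.51). Kcnrg, a gene that hinders channel assembly, lost its call without 0 h replicate 2 (adjusted p = 0.0637) or 3 h replicate 1 (0.0629). Cacng4 rose by 0.84 (adjusted p = 0.0288), and not without any single array (0.0507 to 0.0993). Of the partners, Dpp6 and Dpp10, which bind Kv4 channels as Kcnip1 does, rose by 1.10 and 0.76 at 1 h (adjusted p = 0.0281 and 0.0018) and 0.97 and 0.68 at 3 h (adjusted p = 0.0075 and 0.000398). Beside these, 2 skeletal muscle, 2 smooth muscle, 4 mesothelium, 2 neural crest and 4 endothelial markers rose and 1 endothelial, 2 cartilage and 1 limb mesenchyme marker fell at 3 h, and their part in the result was not tested.

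The promoters of 3 members that rose at both times of E12.5 culture hold the letters CAGCTG, of 6 with a listed promoter (50.0%, against 12.8% of all promoters and 26.2% of the 80 member promoters). Of the 21 members higher at E12.5 at 0, 1 and 3 h, 4 of 18 listed promoters hold them (22.2%). The windows of the 3 are shown because they hold the motif, which is in capitals as above. They were picked by the motif from the 7 members called higher at both times. The window of Kcne4 is chr1:78816661-78816910 (plus strand, motif 147 bases before the start), that of Kcnip1 chr11:33993194-33993443 (minus strand, 236 bases) and that of Kcne1l chrX:142306199-142306448 (minus strand, 117 bases). The positions of the motif differ between the 3 genes. Kcnj8, printed for comparison, has no match in chr6:142571615-142571864 (minus strand), which says only that these letters are not in this window.
Kcne4: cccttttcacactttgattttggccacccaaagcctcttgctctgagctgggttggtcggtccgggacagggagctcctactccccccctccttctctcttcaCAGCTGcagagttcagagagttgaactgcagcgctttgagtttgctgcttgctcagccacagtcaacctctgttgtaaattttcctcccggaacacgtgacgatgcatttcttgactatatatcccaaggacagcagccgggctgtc
Kcnip1: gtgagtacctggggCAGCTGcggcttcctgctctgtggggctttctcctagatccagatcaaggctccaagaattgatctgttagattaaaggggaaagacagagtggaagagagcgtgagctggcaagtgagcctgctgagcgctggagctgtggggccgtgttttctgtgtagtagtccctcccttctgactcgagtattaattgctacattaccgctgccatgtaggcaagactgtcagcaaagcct
Kcne1l: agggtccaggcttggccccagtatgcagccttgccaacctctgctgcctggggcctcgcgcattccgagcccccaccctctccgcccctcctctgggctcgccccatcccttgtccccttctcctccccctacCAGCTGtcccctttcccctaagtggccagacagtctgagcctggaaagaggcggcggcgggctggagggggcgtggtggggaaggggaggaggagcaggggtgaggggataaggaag
Kcnj8: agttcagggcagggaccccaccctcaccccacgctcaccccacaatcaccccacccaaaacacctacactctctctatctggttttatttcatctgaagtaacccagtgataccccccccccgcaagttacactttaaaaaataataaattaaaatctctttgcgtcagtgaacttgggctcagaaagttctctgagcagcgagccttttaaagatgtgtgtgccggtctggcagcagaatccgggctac

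The change in culture was tested for a difference between the stages, as the E12.5 change minus the E10.5 change. At 1 h, 0 members were higher and 2 lower, against 0.148% and 0.39% of all genes, and at 3 h 11 were higher and 4 lower, against 4.83% and 9.43%. Of the 11, all were potassium genes, and 8 of them voltage-gated alpha subunits out of 27. The median difference at 3 h was 0.37 for potassium genes, 0.14 for calcium and 0.06 for sodium genes, and -0.01 for all genes. With a common median 14 were higher and 4 lower, and of all genes 891 and 735. With quantile normalization 12 were higher and 9 lower, and of all genes 1216 and 1552. Without the 3 arrays that stand apart 8 were higher and 7 lower. At 3 h the total was 8 without E10.5 0 h replicate 2, 7 without E12.5 0 h replicate 2, and 9 without E12.5 3 h replicates 1 or 2. At 1 h it was 7 without E10.5 0 h replicate 1, and 1 without E10.5 0 h replicate 2, E10.5 1 h replicate 1, E12.5 0 h replicates 1 or 2, or E12.5 1 h replicates 1 or 3.

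The changes of Kcnab1 and Cacna2d1 had opposite signs at the 2 stages. Kcnab1 rose by 1.75 and 1.95 at 1 h and 3 h at E10.5, while at E12.5 its changes were -0.41 and -0.70, differences of -2.17 (SE 0.33, adjusted p = 0.00341) and -2.65 (adjusted p = 0.00034). Cacna2d1 differed by -1.0 (SE 0.21, adjusted p = 0.0367) and -1.07 (adjusted p = 0.00488). The 1 h call of Cacna2d1 was lost under the common median (adjusted p = 0.1), quantile normalization (0.0963) and without 9 of the 12 arrays of the comparison taken singly (0.0626 to 0.12). In the other direction at 3 h, Kcne4 differed by 1.57 (SE 0.40, adjusted p = 0.0164), Kcnj15, an inward rectifier, by 1.52 (adjusted p = 0.016), Kcnj8 by 1.12 (adjusted p = 0.00485) and Kcna4 by 1.08 (adjusted p = 0.00635). Kcnj15 was at 6.54, 6.32 and 6.56 in E10.5 0 h and 6.01, 4.79 and 6.14 after 3 h, and at 5.74, 5.89 and 6.18 in E12.5 0 h and 6.75, 6.52 and 6.64 after 3 h. Its values went down at 1 stage and up at the other without overlap, although neither change was itself called. Cacna1h, by contrast, was called higher at 3 h at both stages, and the test of the difference did not call it (-0.14, adjusted p = 0.749).

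**Figure D5:**
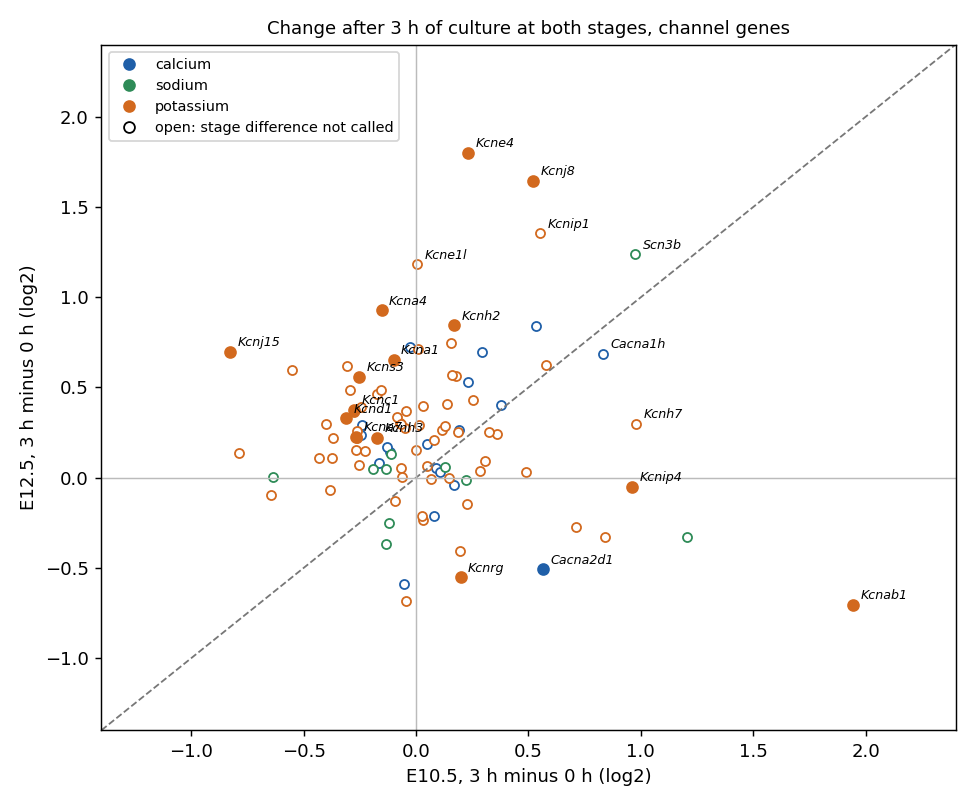
Change after 3 h of culture (log2) at E10.5 (horizontal axis) and E12.5 (vertical axis) for the 102 channel genes, coloured by ion class. Filled points are the 15 genes whose change differed between the stages, with Kcnab1 at 1.95 and -0.70 and Kcne4, Kcnj8 and Kcna4 high on the E12.5 axis.

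Of the 102 members, 9 (Cacna1h, Cacna1s, Cacna2d1, Cacng4, Kcnab1, Kcne1l, Kcnh7, Kcnj8 and Scn3b) are in gene tables that the study drew from these arrays. Among the 93 others, 2 rose after 1 h of E10.5 culture with 0 falling (2.15% called, against 3.91% of all genes), 1 rose with 1 falling after 3 h (2.15% against 4.68%), and 3 fell after 6 h with 0 rising (3.23% against 6.76%). Between 3 h and 6 h, 2 fell with 0 rising. After 1 h of E12.5 culture 6 rose with 1 falling (7.53% against 2.11%), and after 3 h 14 rose with 3 falling (18.3% against 27.5%). At 0 h 23 of them were higher and 5 lower at E12.5, at 1 h 22 and 1, and at 3 h 38 and 3 (30.1%, 24.7% and 44.1%, against 27.1%, 18.1% and 28.7%).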

How the data were processed

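Total RNA of whole FBs was hybridised to Affymetrix Mouse Exon 1.0 ST arrays, 1 array per biological replicate, 21 arrays in 7 groups taken from the sample labels. The deposited values are log2 expression values that the authors obtained with robust multi-array averaging (RMA: background correction, quantile normalization between arrays and a summary of the probes of each gene) in Expression Console, whose version is not given in the sources used here. RMA values are not counts, so there is no depth per sample, and the number of arrays limits the precision. Of 23332 features, 14996 named a single gene, 1019 several and 7317 none in the platform annotation, and no value was missing. For the 135 genes with several features the one with the highest mean was kept, which gave 14860 genes. All 102 members matched a RefSeq gene name, and no pair of arrays held identical values.

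Groups were compared with limma 3.58.1 in R 4.3.3, with a mean per group over all 21 arrays (14 residual degrees of freedom), default empirical Bayes moderation and Benjamini-Hochberg adjustment over all genes, in 11 comparisons: each culture time against 0 h, E10.5 6 h against 3 h, E12.5 against E10.5 at 0, 1 and 3 h, and the stage difference of the 1 h and 3 h changes. Data were simulated for the E10.5 3 h comparison, with independent normal noise and a small part of the 14860 genes changed. The fit recovered 26.9% of changes of 0.5, 65.7% of 1 and 100% of 2 on the log2 scale, so that a gene not called may have changed. These rates depend on the share of genes changed and were not obtained for the other comparisons. Ion classes were described by counts and medians beside those of all genes, with no test of the class. Named were, per comparison, of the called members the 10 that rose most and the 10 that fell most, every pore-forming calcium and sodium gene, members in the study's gene tables, and up to 4 genes of the partner list and of each marker list. The members, the marker lists and the partner list were chosen with earlier results of these data known. Alternatives were another scaling, a filter on low values, the mean of a gene's features, other moderation, weights per array, a block for the replicate number, fits to fewer groups, an unadjusted threshold, a t-test (named in the methods for other assays), and leaving out each array. Promoters, 250 bases before the start, came from RefSeq on GRCm38.p6 for 80 members.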

Additional observations from a re-analysis of the deposited data

Results flagged for a closer look

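For 15 members the change after 3 h of culture differed between E10.5 and E12.5 in limma's test of the difference itself, and for 2 of them, Kcnab1 and Cacna2d1, the 1 h change differed too. All values are the E12.5 change minus the E10.5 change on the log2 scale. Kcnab1 had -2.17 at 1 h (adjusted p = 0.00341) and -2.65 at 3 h (adjusted p = 0.00034), and Cacna2d1 had -1.0 (adjusted p = 0.0367) and -1.07 (adjusted p = 0.00488). No single array left out ended the 3 h calls of either gene. Kcnip4 (-1.01, adjusted p = 0.0432) and Kcnrg (-0.75, adjusted p = 0.0252) were lower as well. Kcnip4 lost its call without 10 of the 12 arrays taken singly (0.0531 to 0.117) and Kcnrg without E10.5 3 h replicate 2, E12.5 0 h replicate 2 or E12.5 3 h replicate 1 (0.0532 to 0.0722).

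In the other direction, Kcne4 had 1.57 (adjusted p = 0.0164), Kcnj15 1.52 (adjusted p = 0.016), Kcnj8 1.12 (adjusted p = 0.00485), Kcna4 1.08 (adjusted p = 0.00635) and Kcns3, a silent modifier of Kv2 channels, 0.81 (adjusted p = 0.0157). None of these 5 lost its call without a single array. Smaller values were those of Kcna1 (0.75, adjusted p = 0.0492), Kcnh2 (0.68, adjusted p = 0.0485), Kcnc1 (0.65, adjusted p = 0.0278), Kcnd1 (0.64, adjusted p = 0.0465), Kcna7 (0.49, adjusted p = 0.0369) and Kcnh3 (0.39, adjusted p = 0.0398). Kcnc1 lost its call without E10.5 0 h or 3 h replicate 2, E12.5 0 h replicates 2 or 3 or E12.5 3 h replicate 2 (0.0516 to 0.0782), and the other 5 without 9 to 11 of the 12 arrays taken singly (0.0502 to 0.127). Markers of several lists differed in the same test. Of 8 mesothelium markers 3 were lower at 1 h and 5 at 3 h, and of 6 smooth muscle markers 1 was lower at each time. At 3 h, 2 of 9 endothelial, 1 of 10 limb mesenchyme and 1 of 9 cartilage markers were lower. Of 5 placenta and decidua markers 2 were higher at 3 h, as was 1 of 12 skeletal muscle markers. The part of any of these lists in these results was not tested.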

How the results depend on the processing

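The 184 calls of members were recomputed under 17 to 22 alternative settings each, giving 3322 values. Of these, 2759 kept direction and call, 562 kept the direction only, and 1 turned: Kcnh3 at 3 h went from 0.25 to -0.051 with quantile normalization. Members called only under an alternative are not in this tally. At 0 h under the common median, 14 potassium genes were higher at E12.5 and 22 lower, against 16 and 4 in the main fit. The number of members called at E12.5 against E10.5 at 0 h (35) stayed within 1.5 times under every alternative run. This compares totals and not directions, and the split into higher and lower changed under the common median. With arrays at a common median the stage difference of the 1 h change gave 4 in place of 2, and with quantile normalization E10.5 1 h and 3 h gave 10 and 13 in place of 6 each. Without the 30% of genes with the lowest mean, 6 h against 3 h gave 1 in place of 3. Array weights gave 22, 23 and 17 at E10.5 1, 3 and 6 h, 14 for 6 h against 3 h, 15 and 43 at E12.5 1 and 3 h, and 16 and 34 for the stage differences of the 1 h and 3 h changes. Fits to the compared groups only gave 2, 1 and 4 at E10.5, 0 for 6 h against 3 h, and 4 for the stage difference of the 1 h change. An unadjusted p under 0.01 gave 13 and 11 at E10.5 1 and 3 h, 14 at E12.5 1 h, and 13 for the stage difference of the 1 h change. A t-test, which the methods name for other assays and not for the arrays, at an unadjusted p under 0.01 gave 3 at E10.5 3 h and 30 for the stages at 3 h, and after Benjamini-Hochberg 0 in the E10.5 comparisons, 1 at E12.5 1 h and 15 and 20 for the stages at 1 and 3 h. Without the 3 arrays that stand apart, chosen after seeing the data, the counts were 11, 13 and 13 at E10.5, 14 and 41 at E12.5, and 4 for the stage difference of the 1 h change. Leaving out each array gave 3 to 10, 1 to 7 and 3 to 7 at E10.5 1, 3 and 6 h, 0 to 4 for 6 h against 3 h, 5 to 10 and 16 to 23 at E12.5, 32 to 36, 23 to 30 and 36 to 46 for the stages, and 1 to 7 and 7 to 15 for the stage differences of the changes. With the replicate number as a block the counts were 9, 7, 9 and 3 at E10.5, 9 and 28 at E12.5, 36, 30 and 48 for the stages, and 2 and 16 for the stage differences. The main fit does not pair the arrays. Deviations of same-numbered arrays correlated by -0.20 to 0.33 and exceeded 0.1 in 12 of 63 pairs. For arrays of different number the range was -0.38 to 0.29, with 13 of 126 pairs over 0.1. Deviations from a mean of 3 arrays depend on each other, so this cannot settle whether same-numbered arrays share an origin. The counts in this section are of members only, without the share of all genes called under each setting. The cause of these changes was not tested.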
